A study of Mus musculus with 20 samples.

Results

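Genes of insulin and insulin-like growth factor (IGF) signalling were followed through 20 RNA-seq libraries of cultured mouse motoneurons. They were chosen by symbol from the 39174 genes of the deposited files, and the choice covers 10 genes: the ligands Igf1 and Igf2, the receptors Igf1r, Insr and Igf2r, the adaptors Irs1 and Irs2, the PI3-kinase subunit Pik3r1, the kinase Akt1 and the transcription factor Foxo3. The cells were primary motoneurons from spinal cords of E12.5 embryos of the CD-1 strain, grown for 7 days in microfluidic chambers that separate axons from cell bodies and dendrites. Per the methods, chambers held the growth factor CNTF on both sides and the growth factor BDNF on the axonal side. The compartments thus differed in this treatment as well. Control cultures carried an empty lentiviral expression vector and knockdown cultures a lentivirus with a short hairpin RNA against Tdp-43, the RNA-binding protein encoded by Tardbp, so that all cultures had been exposed to lentivirus. Total RNA was sequenced from the somatodendritic and the axonal side, with 4 Control and 6 Tdp-43 knockdown libraries per side. The Control libraries had been part of an earlier study and were processed in parallel with the knockdown libraries, according to the methods. The comparisons asked whether the levels of these transcripts differ with loss of Tdp-43 and between the compartments. No label names a culture or an animal, so p-values measure the spread between these libraries, which may be partly technical.

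IGF1, IGF2 and insulin bind receptor tyrosine kinases at the cell surface, which phosphorylate the insulin receptor substrates. These adaptors recruit PI3-kinase, whose lipid product activates Akt, and Akt in turn keeps FoxO transcription factors out of the nucleus and raises mTOR activity. In motoneurons IGF1 is known as a survival and axon growth factor.

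All 10 genes are protein-coding, and positions are those of the files on GRCm38. Igf1r (ENSMUSG00000005533) lies on chromosome 7, 67952859 to 68226780, plus strand. Insr (ENSMUSG00000005534) lies on chromosome 8, 3150922 to 3279617, and Igf2r (ENSMUSG00000023830) on chromosome 17, 12682406 to 12769664, both on the minus strand. The adaptor genes are Irs1 (ENSMUSG00000055980; chromosome 1, 82233101 to 82291416, minus strand) and Irs2 (ENSMUSG00000038894; chromosome 8, 10986980 to 11008458, minus strand). The ligand genes are Igf1 (ENSMUSG00000020053; chromosome 10, 87858265 to 87937042, plus strand) and Igf2 (ENSMUSG00000048583; chromosome 7, 142650766 to 142666816, minus strand). Pik3r1 (ENSMUSG00000041417) lies on chromosome 13, 101680761 to 101768217, Akt1 (ENSMUSG00000001729) on chromosome 12, 112653821 to 112674884, and Foxo3 (ENSMUSG00000048756) on chromosome 10, 42181841 to 42276755, all on the minus strand. In the GENCODE M21 annotation, Irs1 shares 2822 exonic bases with the antisense gene Gm9747, Irs2 shares 162 with the antisense gene 9530052E02Rik, and Igf2 shares 3596 with Gm49394 on its own strand and 98 with the antisense gene Igf2os. The sources used here do not say whether counting used strand, so reads from these overlaps cannot be told apart from reads of the members. Gm9747 and 9530052E02Rik were themselves at or under 0.001 FPKM in all 20 libraries, which was taken as listed at 0, and Gm49394 was not analysed here. Igf2os was at 0.823 FPKM in knockdown axonal replicate 6 and listed at 0 in the other libraries. Airn, antisense to Igf2r with no shared exonic base, was at up to 12.5 FPKM. Of the other genes that overlap members without a shared exonic base, Igf1os, Mir483 (with Igf2), Mir6939 (with Akt1) and Gm16180 (with Insr) were listed at 0 throughout, and Vmn2r-ps88 (with Insr) and Gm36638 (with Pik3r1) were not analysed here.

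Tdp-43 binds UG-rich RNA, so runs of TG were searched in the coding transcripts of the members in GENCODE M21 (GRCm38). A run was at least 6 copies of TG in a row on the transcript's own strand, with a leading G or a last T counted where present. The windows of at most 30 bases that hold such a run are shown because they are the stretches of the members that match this binding preference, with the run in capitals. Igf1r has one in its 3′UTR, at chr7:68229137-68229166 on the plus strand. Igf1 has a run of 36 bases in the 3′UTR of 1 of its 8 coding transcripts, at chr10:87934809-87934838 on the plus strand. The first 30 of these bases are shown. Pik3r1 has a pair of neighbouring runs in the 3′UTR of 1 of its 4 coding transcripts, at chr13:101681685-101681714 and chr13:101681667-101681696 on the minus strand. Which of these transcripts the cells express was not tested.
Igf1r: tgtttttcaTGTGTGTGTGTGcatatatat
Igf1: GTGTGTGTGTGTGTGTGTGTGTGTGTGTGT
Pik3r1, upstream run: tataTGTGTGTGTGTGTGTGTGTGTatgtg
Pik3r1, downstream run: tgtgtgtaTGTGTGTGTGTGTtcctgtatt
The other 7 members have no such run, which says only that these letters are not in their annotated transcripts. Among all genes with a coding transcript 7.01% have a run, and among genes tested in somatodendritic libraries with a transcript of at least 7000 bases the share was 22.9%. The Igf1r run lies beyond the end that the files give for Igf1r. A match is a description of sequence and no binding was measured here.

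Expression is given as FPKM, a fragment count divided by exon length and library size, so that genes can be compared per length. Depth was inferred from the width of the 95% interval beside each value, which was translated into the fragments that such a width would imply. Fragments here are PCR-amplified and not molecules, and implied fragments are not read counts. Relative to the deepest library, depth was 0.612 to 1 in Control and 0.143 to 0.698 in knockdown somatodendritic libraries, and 0.530 to 0.674 in Control and 0.103 to 0.760 in knockdown axonal libraries. Tardbp, the target of the knockdown, was at 30.8, 19.04, 29.6 and 29.9 FPKM in somatodendritic Control libraries and at 0.820, 5.23, 2.50, 6.96, 8.54 and 0 FPKM in knockdown libraries, a log2 change of -3.06 (standard error 0.565, adjusted p = 0.0228 in limma). In axonal libraries it was at 32.3, 20.1, 32.3 and 13.4 FPKM in Control and at 33.2, 1.21, 4.97, 13.1, 13.98 and 11.5 FPKM in knockdown libraries (log2 change -1.71, standard error 0.629, adjusted p = 0.425 in limma). The library labelled knockdown axonal replicate 1 was therefore the highest of all axonal libraries in Tardbp as deposited, and within the Control range after scaling. Without it, 0 of 10 members passed the adjusted threshold between axonal knockdown and Control libraries in limma (adjusted p 0.576 to 0.988), and between the compartments of knockdown libraries Pik3r1 remained the only 1 of 10 called (adjusted p = 0.00713). Of the markers that define motoneurons, Chat, Mnx1 and Isl2 were listed at 0 in all libraries, Slc5a7 averaged at most 0.0670 FPKM in any group and Isl1 at most 2.68 FPKM. Prph averaged at most 1.11 FPKM, and Ngfr, which encodes the p75 receptor used to enrich the cells, averaged 0.919 to 5.71 FPKM. The defining markers were thus absent or low. General neuronal genes were high, with Tubb3 averaging 698 and 732 FPKM in Control and knockdown somatodendritic libraries and 204 and 238 FPKM in axonal ones. Markers of other cells were present as well, among them all 8 astrocyte and radial glia genes. In these bulk samples, fewer cells of a type and less RNA per cell cannot be told apart.

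Akt1, Pik3r1 and Igf1 were the most abundant members in somatodendritic Control libraries, and Igf1r was among the lower ones. Akt1 averaged 47.5 ± 3.98 FPKM (SD, n = 4), Pik3r1 42.0 ± 2.26 and Igf1 38.9 ± 8.69. The ranges of these 3 genes overlapped. A gap separated them from Irs1 (14.9 ± 2.50 FPKM), Foxo3 (12.7 ± 5.42), Insr (11.5 ± 2.38) and Igf1r (11.1 ± 2.07), whose ranges overlapped each other. Igf2 ranged from 1.50 to 14.8 FPKM, across the levels of these 4 genes and below. Igf2r (5.49 ± 0.591 FPKM) and Irs2 (4.69 ± 1.64) were lower still. In knockdown somatodendritic libraries Igf1r averaged 30.9 ± 3.97 FPKM (SD, n = 6) and stood next after Akt1, Pik3r1 and Igf1. Its level exceeded that of 79.3% of protein-coding genes in Control and 91.5% in knockdown somatodendritic libraries, and 88.4% and 94.6% in axonal ones.

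The members differ in the width of their intervals, given here as implied fragments. Pik3r1 had a median of 68.3 implied fragments over the 20 libraries, Irs1 64.2 and Igf1r 31.2. Irs2 had 11.6, Akt1 9.55, Igf1 8.68, Insr 8.49 and Foxo3 3.68. These numbers are not read counts. Igf2r averaged 10.7 FPKM over 9308 exonic bases with a median of 0.318 implied fragments, and Irs1 18.1 FPKM over 9144 with 64.2. The interval widths thus hold more than counting error and do not rank the members by reads. For Igf2r the authors' 95% interval reached 0 in all 20 libraries and for Igf2 in 18, so that these values carry the least information.

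Knockdown of Tdp-43 went with a higher level of one member in the somatodendritic compartment, the IGF1 receptor. Igf1r encodes the tyrosine kinase through which IGF1 acts on neurons. It was at 10.3, 11.1, 8.96 and 13.9 FPKM in Control libraries, and in the 6 knockdown libraries its lowest value was 23.3, its median 31.8 and its highest 34.3 FPKM. Every knockdown library was thus above every Control library, also after scaling, where the means were 28.5 ± 4.06 FPKM (SD, n = 6) and 11.8 ± 2.01 FPKM (SD, n = 4), a ratio of 2.41. The log2 change was 1.20 (standard error 0.203, 95% interval 0.76 to 1.65, adjusted p = 0.0137 in limma). Igf1r was the only 1 of the 10 members past the adjusted threshold in this comparison, in which 0.976% of all genes tested passed it (0.218% as higher). In scaled FPKM the groups did not overlap for 1 of 10 members, against 5.53% of all genes. The study had itself listed Igf1r from these libraries, so this test is not independent of that choice.

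Of 20 alternatives 4 ended the Igf1r call, the replicate block given below among them, with little change in its size. Without Control replicate 1 the adjusted p was 0.052 in limma and without Control replicate 3 it was 0.0667, with log2 changes of 1.18 and 1.11, and in a fit of all 20 libraries it was 0.184 (log2 change 1.19). Over all alternatives the log2 change lay between 0.99 and 1.41 and the limma adjusted p between 0.00463 and 0.184. Scaling shifted the median log2 change of all genes to -0.14, from 0.04 in the values as deposited. Relative to that median the change of Igf1r was 1.34 with scaling and 1.37 without.

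Among the cell type markers, 3 of 47 did not overlap between knockdown and Control in the same somatodendritic libraries as deposited, near the 6.23% of all genes. After scaling 3 of 47 did not overlap either (5.53% of all genes). The markers were not tested one by one. The neuronal Map2 was at 276 to 392 FPKM in Control and 443 to 589 FPKM in knockdown libraries, and Nefl, a neurofilament gene, at 86.7 to 115 and 35.3 to 54.1 FPKM. Slc1a2, an astrocytic glutamate transporter, was at 26.7 to 48.6 FPKM in Control and 50.4 to 130.6 FPKM in knockdown libraries. After scaling Slc1a2 overlapped, and Fabp7 of the radial glia was lower in all knockdown libraries. The summed FPKM of the 8 astrocyte and radial glia markers was 315 to 387 in Control and 267 to 471 in knockdown libraries, and that of the 6 neuronal genes 1621 to 1864 and 1532 to 2396. The part of these cells in the Igf1r difference was not tested.

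**Figure D1:**
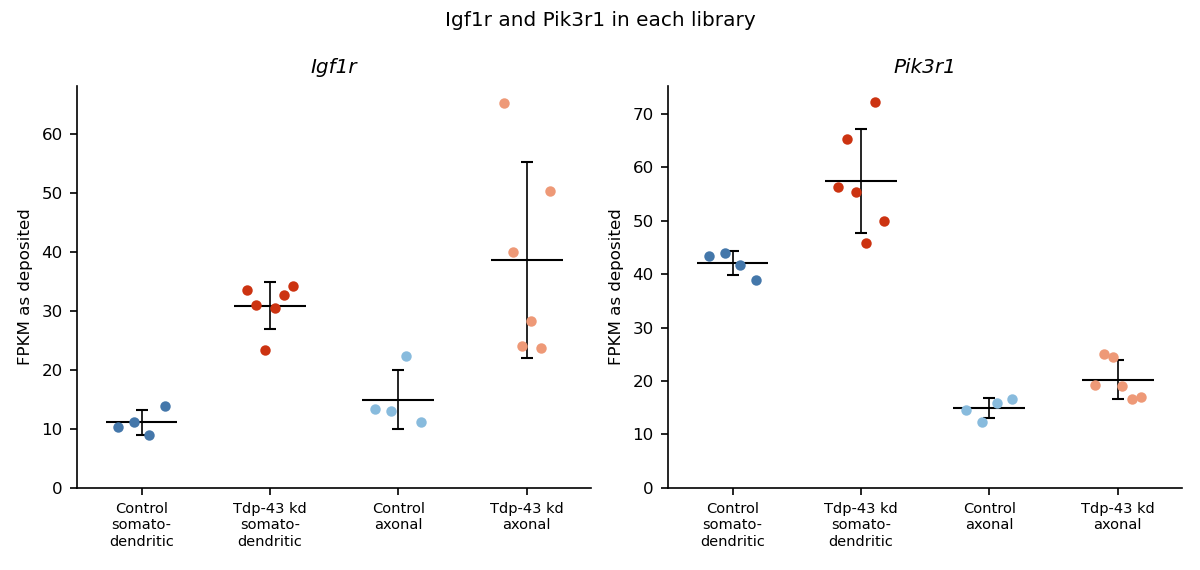
Deposited FPKM of Igf1r and Pik3r1 in each library, by group, with the mean as a horizontal line and error bars of 1 SD (4 Control and 6 knockdown libraries per compartment). The somatodendritic knockdown libraries reach 23.3 to 34.3 FPKM for Igf1r, above all 4 Control libraries, and Pik3r1 is lower in every axonal than in every somatodendritic library of the same condition.

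The other receptors and both ligands did not pass the test in somatodendritic libraries. Insr, the insulin receptor, was at 13.9, 11.5, 12.2 and 8.22 FPKM in Control libraries and at 6.33 (lowest), 18.1 (median) and 52.2 FPKM (highest) in knockdown libraries. The groups overlapped, and the highest value came from knockdown replicate 6, the shallowest somatodendritic library (log2 change 0.33, 95% interval -0.71 to 1.38). With 1 library left out, the Insr change lay between 0.0045 and 0.58. Igf2r, which clears IGF2 and carries mannose 6-phosphate tagged enzymes to lysosomes, was at 4.80, 5.36, 6.24 and 5.56 FPKM against 3.92, 8.35 and 14.6 FPKM in the same order (log2 change 0.28, 95% interval -0.44 to 0.99). Igf1 was at 31.5, 47.4, 45.4 and 31.3 FPKM in Control libraries and spread from 13.3 to 83.0 FPKM (median 38.2) in knockdown libraries, on both sides of the Control range. Its log2 change was -0.17 (95% interval -1.08 to 0.74) and turned to 0.04 in the values as deposited and to 0.12 without knockdown replicate 3. Igf2 was at 1.50, 8.81, 5.31 and 14.8 FPKM in Control and at 2.14 to 14.6 FPKM (median 9.41) in knockdown libraries, entirely within the Control range (log2 change 0.16, 95% interval -1.05 to 1.38).

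The signalling proteins downstream of the receptors were likewise not called. Irs1, the adaptor with the most implied fragments, was at 12.2, 13.9, 15.6 and 18.02 FPKM in Control libraries. In knockdown libraries it was at 11.6, 18.7 and 27.8 FPKM (lowest, median and highest; log2 change 0.13, 95% interval -0.42 to 0.67). For Irs2 the Control values were 5.54, 5.07, 5.86 and 2.28 FPKM, and 5 of 6 knockdown libraries, which ranged from 4.78 to 9.17 FPKM (median 7.73), lay above all of them (log2 change 0.42, 95% interval -0.29 to 1.13). Pik3r1, which encodes the p85 alpha regulatory subunit of PI3-kinase, was at 43.4, 43.9, 41.7 and 39.0 FPKM in Control libraries. In knockdown libraries its lowest value was 45.9, its median 55.9 and its highest 72.3 FPKM. All 6 knockdown libraries were above every Control library in the values as deposited, 1.37 times the Control mean, while 5 of 6 were so after scaling. The log2 change of Pik3r1 was 0.22 (standard error 0.162, 95% interval -0.13 to 0.57, adjusted p = 0.596 in limma), and 0.43 as deposited (unadjusted p = 0.0225, adjusted p = 0.245 in limma). The groups did not overlap as deposited for 2 of 10 members, Igf1r and Pik3r1, against 6.23% of all genes. Pik3r1 too had been listed by the study from these libraries.

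Akt1 encodes the kinase that PI3-kinase activates. Its Control values were 51.6, 44.4, 43.8 and 50.3 FPKM, and its knockdown values reached from 48.2 to 143 FPKM (median 61.1). The highest of these values, 106 and 143 FPKM, came from knockdown replicates 5 and 6, the shallowest somatodendritic libraries (log2 change 0.39, 95% interval -0.26 to 1.03). Foxo3, the transcription factor that Akt restrains, was at 9.33, 20.0, 13.5 and 7.84 FPKM in Control and at 12.3, 16.6 and 33.7 FPKM (lowest, median and highest) in knockdown libraries (log2 change 0.33, 95% interval -0.42 to 1.09). Together 9 of 10 members had a log2 change above 0, with a median of 0.30, while 5560 of 13734 genes tested were above 0, with a median of -0.14 (0.04 as deposited). At an unadjusted p under 0.05, 1 of 10 members differed in limma, against 13.9% of all genes.

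**Figure D2:**
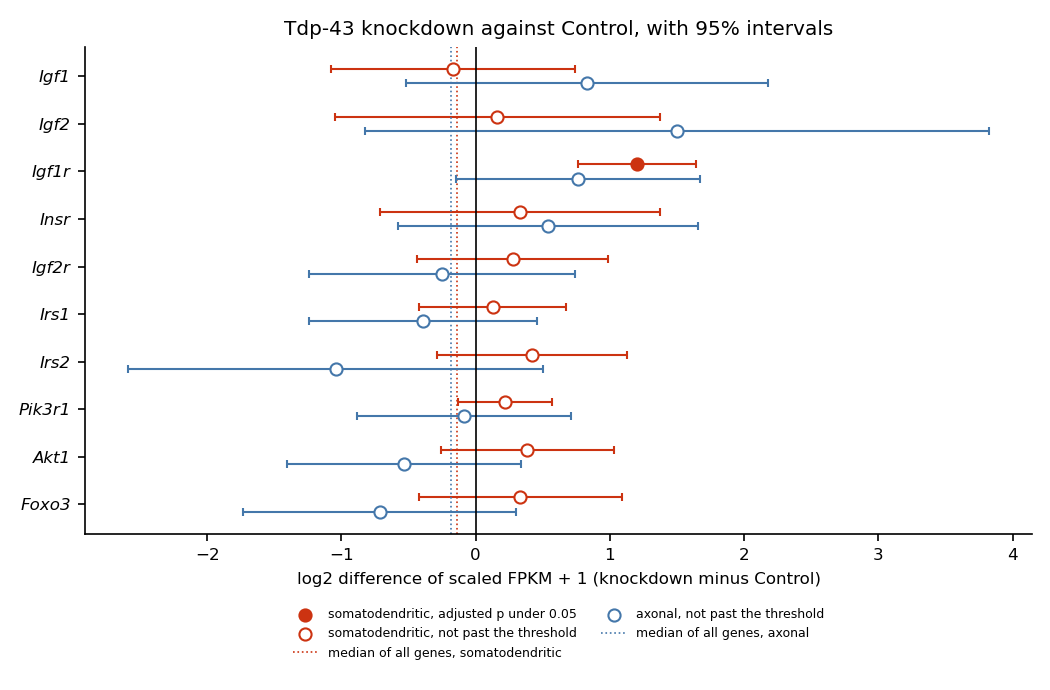
Difference between Tdp-43 knockdown and Control on the log2(scaled FPKM + 1) scale (horizontal axis) for each member, with 95% intervals from limma, for the somatodendritic and the axonal compartment. Only the somatodendritic Igf1r value, 1.20, is past the adjusted threshold (filled point), and the axonal intervals are wider. Dotted lines are the medians of all genes tested, -0.14 and -0.18.

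In axonal libraries no member passed the test. Of the 10 members 0 had an adjusted and 0 an unadjusted p under 0.05 in limma, in a comparison in which 0.404% and 8.72% of all genes did. Their median log2 change was -0.17, beside -0.18 for all genes. Igf1r was at 13.4, 12.9, 22.4 and 11.1 FPKM in axonal Control libraries and at 23.7, 34.1 and 65.3 FPKM (lowest, median and highest) in libraries labelled knockdown. As deposited, all 6 were above every Control library, 2.59 times the Control mean (log2 change 1.26, unadjusted p = 0.00994, adjusted p = 0.301 in limma). Igf1r was the only 1 of 10 members without overlap in these values, against 3.31% of all genes.

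After scaling, the groups overlapped for axonal Igf1r as for the rest, so that 0 of 10 members had separate groups, against 2.53% of all genes. Scaling divided the axonal knockdown libraries by 1.02 to 1.52 and the Control libraries by 0.779 to 0.866, and 3 of 6 knockdown libraries then lay above every Control library. The scaled means were 32.7 ± 13.6 FPKM (SD, n = 6) and 18.3 ± 7.15 FPKM (SD, n = 4), with a log2 change of 0.76 (standard error 0.428, 95% interval -0.15 to 1.67, adjusted p = 0.659 in limma). Relative to the median of all genes, which was -0.18 with scaling and 0.23 without, the change was 0.94 and 1.03. The library labelled knockdown axonal replicate 1 held the highest deposited Igf1r value. Without it the Igf1r change was 0.64 (standard error 0.452, adjusted p = 0.695 in limma). Over all alternatives it lay between 0.62 and 1.26, with adjusted p from 0.296 to 0.832.

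Of the 10 members, axonal Igf2 had the largest standard error. It was at 0.621, 0, 3.16 and 2.73 FPKM in Control and at 2.14, 76.3, 8.89, 1.18, 0 and 43.9 FPKM in libraries labelled knockdown 1 to 6. The difference therefore rests on replicates 2 and 6 (log2 change 1.50, standard error 1.09, adjusted p = 0.730 in limma). The summed FPKM of 7 fibroblast and meningeal markers was 109 in knockdown replicate 2 and 22.6 in replicate 6, and 97.2 in replicate 5, where Igf2 was listed at 0. Their part in the Igf2 values was not tested. Igf1 was at 4.77, 30.6, 12.7 and 30.8 FPKM in Control and ranged from 8.70 to 96.7 FPKM (median 47.8) in knockdown libraries, 5 of which exceeded every Control library as deposited and 2 after scaling (log2 change 0.83, 95% interval -0.52 to 2.18). With 1 library left out, this change lay between 0.31 (without Control replicate 1) and 1.24 (without knockdown replicate 4).

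Among the other axonal members the groups overlapped throughout. Insr was at 5.68, 5.13, 3.78 and 13.03 FPKM against 5.40, 14.3 and 24.5 FPKM (lowest, median and highest of the knockdown libraries; log2 change 0.54, 95% interval -0.58 to 1.66). Igf2r was at 11.9, 24.6, 8.55 and 7.95 FPKM against 9.88, 14.96 and 19.6 FPKM, with a log2 change of -0.25 (95% interval -1.24 to 0.74) that became 0.23 in the values as deposited. Irs1 ranged from 13.4 to 21.3 FPKM in Control and from 10.2 to 30.7 FPKM in knockdown libraries (log2 change -0.39, or 0.10 as deposited). After quantile normalization Igf2r and Irs1 were at -0.16 and -0.27, and without Control replicate 2 the Igf2r change was 0.063. Irs2 was at 21.8, 10.0, 11.7 and 2.60 FPKM in Control and at 1.09, 8.02 and 20.8 FPKM in knockdown libraries (log2 change -1.04, 95% interval -2.59 to 0.50). Pik3r1 was at 14.6, 12.4, 15.9 and 16.7 FPKM against 16.6, 19.1 and 25.0 FPKM (log2 change -0.09, 95% interval -0.88 to 0.71), and 0.41 as deposited. Akt1 ranged from 38.7 to 66.4 FPKM in Control and from 24.4 to 130 FPKM in knockdown libraries (log2 change -0.54, 95% interval -1.41 to 0.34). Foxo3 ranged from 7.34 to 21.3 and from 5.75 to 25.3 FPKM (log2 change -0.71, 95% interval -1.73 to 0.30).

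**Figure D3:**
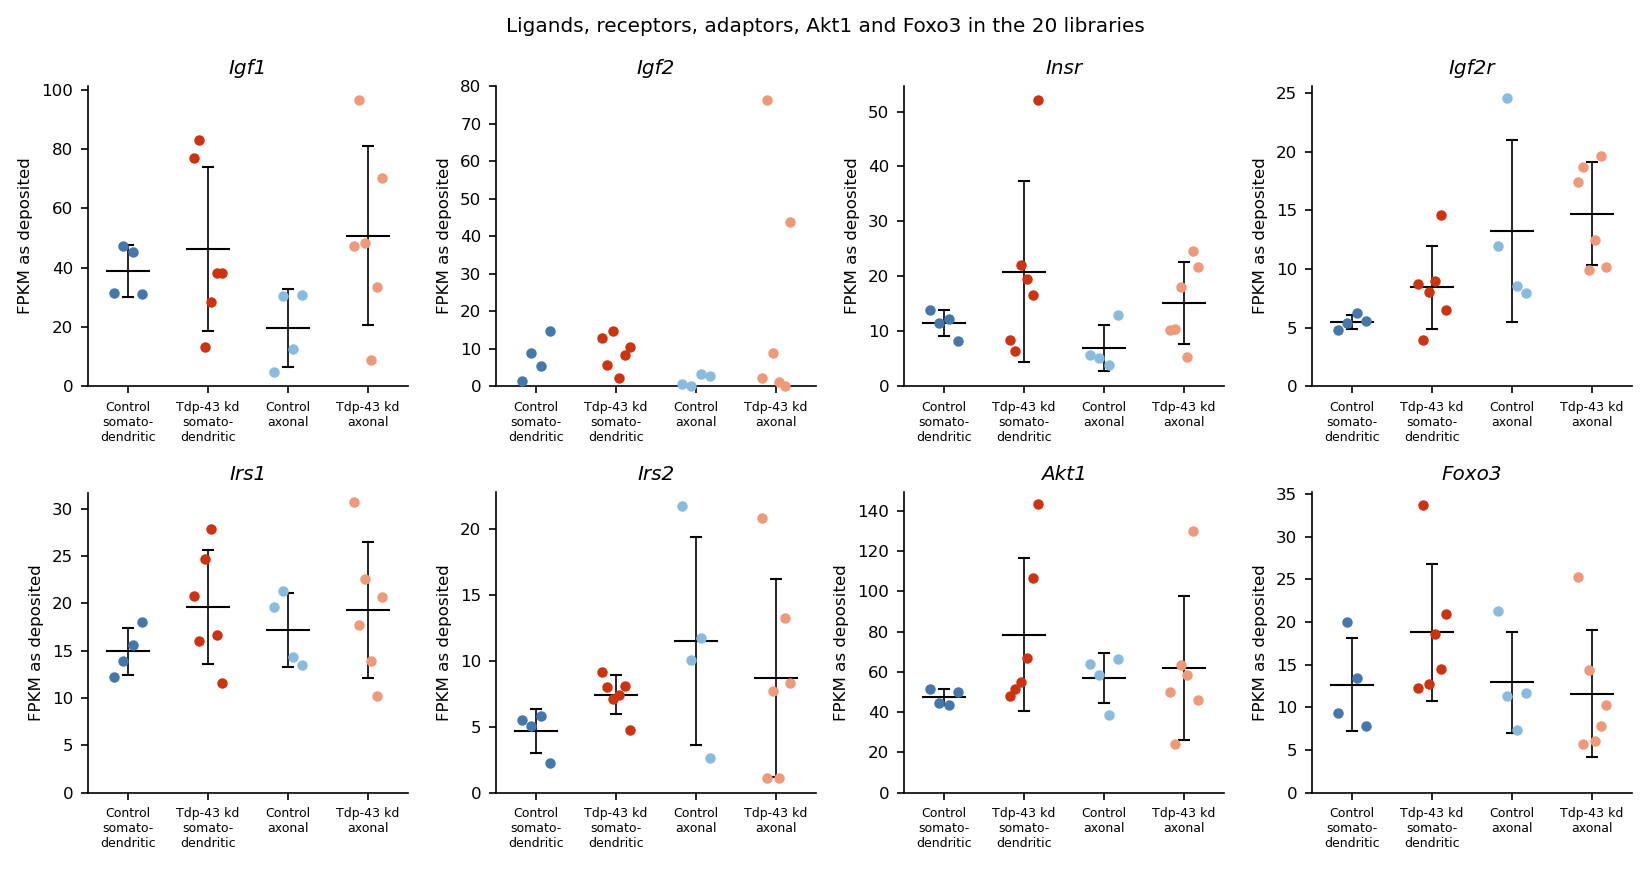
Deposited FPKM of the other 8 members in each library, by group, with mean and 1 SD except for Igf2, which is listed at 0 in 2 libraries and is shown as points only. Groups overlap in most panels, and single knockdown libraries stand high for Insr (52.2 FPKM), Akt1 (143 and 130 FPKM) and Igf2 (76.3 FPKM).

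Whether the knockdown difference itself differed between compartments was tested in one limma fit of all 20 libraries. None of the 10 members had an adjusted p under 0.05 (0 of 10, against 0.0713% of all genes) and 0 of 10 had an unadjusted p under 0.05 (5.66% of all genes). For Igf1r the axonal difference minus the somatodendritic one was -0.45 (standard error 0.4663, 95% interval -1.42 to 0.51, adjusted p = 0.959). The lowest unadjusted p values were those of Foxo3 (-1.07, 95% interval -2.25 to 0.11), Akt1 (-0.94, 95% interval -2.02 to 0.13) and Irs2 (-1.49, 95% interval -3.25 to 0.26).

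Between compartments, Pik3r1 was lower on the axonal side. In knockdown libraries it had a scaled mean of 19.4 ± 4.52 FPKM in axons and 45.8 ± 6.82 FPKM in the somatodendritic compartment (SD, n = 6 each), and the deposited ranges, 16.6 to 25.0 and 45.9 to 72.3 FPKM, lay far apart. The log2 difference, axonal minus somatodendritic, was -1.21 (standard error 0.216, 95% interval -1.66 to -0.76, adjusted p = 0.00302 in limma). This was 1 of 10 members called, where 5.39% of all genes passed the threshold (2.45% as lower in axons), and the call held in all 20 fits that each left out 1 library. In scaled FPKM the groups did not overlap for 1 of 10 members, against 2.47% of all genes.

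In Control libraries the Pik3r1 difference had the same direction and did not pass the threshold. The axonal Control values of 12.4 to 16.7 FPKM were all below the somatodendritic ones of 39.0 to 43.9 FPKM. The scaled log2 difference was -0.88 (standard error 0.264, 95% interval -1.43 to -0.34, adjusted p = 0.0857 in limma), with adjusted p between 0.00525 and 0.215 over all alternatives. It was past the threshold as deposited (log2 difference -1.45, adjusted p = 0.00525 in limma). The difference between the compartment differences of knockdown and Control was -0.33 (95% interval -1.03 to 0.38). Both comparisons share the scaling and the spread of the 20-library fit.

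Of the members 0 of 10 passed the adjusted threshold between Control axons and the Control somatodendritic compartment (2.13% of all genes), and 5 of 10 had an unadjusted p under 0.05 in limma (15.5% of all genes). Besides Pik3r1 these were Igf2r, Irs2, Igf1r and Irs1, all higher in axons. Both counts varied with the setting. As deposited, 1 of 10 passed the adjusted threshold (579 of 14062 genes) and 2 of 10 the unadjusted one in limma (2803 genes). The adjusted count was 3 of 10 with array weights (1216 of 14018 genes) and at a relative depth of at least 0.5 (1061 of 14011 genes). Igf2r ranged from 7.95 to 24.6 FPKM in axons and from 4.80 to 6.24 FPKM in the somatodendritic compartment, with no overlap, and its log2 difference was 1.54 (standard error 0.427, adjusted p = 0.0617 in limma). Over all alternatives its adjusted p lay between 0.00768 and 0.201, while its 95% intervals in single libraries reached 0. In knockdown libraries the Igf2r difference was 0.99 (standard error 0.349, adjusted p = 0.0974 in limma), and without knockdown axonal replicate 3 it was 1.16 (adjusted p = 0.0459).

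The size of the differences of the members higher in Control axons varied with the scaling, while their direction was the same in all 31 settings. Igf1r had a log2 difference of 0.92 in Control (standard error 0.361, adjusted p = 0.203 in limma), and 0.37 as deposited, and its adjusted p lay between 0.0461 and 0.595 over the settings. Irs1 had 0.74 (95% interval 0.04 to 1.44) and Irs2 1.44 (95% interval 0.08 to 2.80), with 0.18 and 0.92 as deposited. The values as deposited had a median difference of -0.47 over all genes and the scaled ones of -0.01. In scaled Control values the compartments did not overlap for 5 of 10 members, Igf1r, Igf2r, Irs1, Akt1 and Pik3r1, against 15.7% of all genes. As deposited they did not overlap for 3 of 10 (21.9% of all genes), Igf2r as higher and Igf1 and Pik3r1 as lower in axons.

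Akt1 was at 38.7 to 66.4 FPKM in axonal and 43.8 to 51.6 FPKM in somatodendritic Control libraries (log2 difference 0.81, 95% interval -0.02 to 1.64). Over all alternatives this difference lay between 0.23, as deposited, and 0.95, with limma adjusted p from 0.0371 to 0.801. Insr, Igf1, Igf2 and Foxo3 had log2 differences of -0.24, -0.67, -1.32 and 0.56 in Control, each with an interval that includes 0. In knockdown libraries, 2 of 10 members had an unadjusted p under 0.05 in limma, Pik3r1 and Igf2r, against 20.7% of all genes. Igf1r was at 0.47 there (95% interval -0.14 to 1.08). Irs1, Igf1, Igf2, Insr, Irs2, Akt1 and Foxo3 had log2 differences between -0.51 and 0.31, of which all but that of Foxo3 changed sign under another scaling, another setting or the omission of 1 library.

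**Figure D4:**
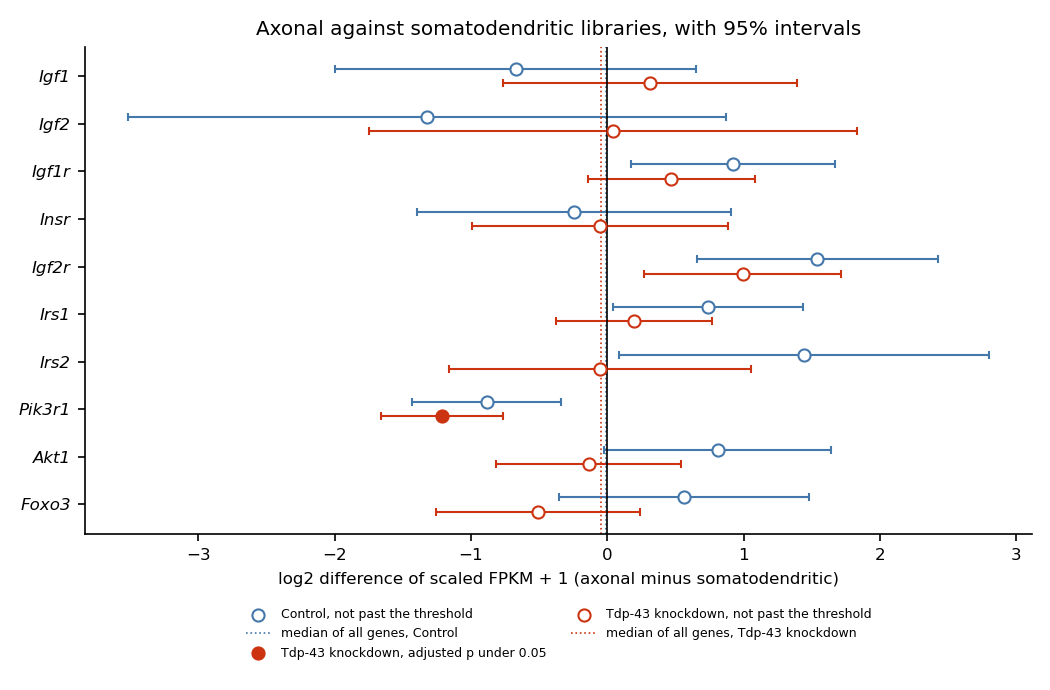
Difference between axonal and somatodendritic libraries on the log2(scaled FPKM + 1) scale (horizontal axis) for each member, with 95% intervals from limma, in Control and in Tdp-43 knockdown libraries. Pik3r1 is at -0.88 and -1.21, the latter past the adjusted threshold (filled point), and Igf2r is at 1.54 and 0.99. Dotted lines are the medians of all genes tested.

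The sums of several cell type marker lists differed between the compartments, in both directions. The summed FPKM of 6 general neuronal genes was 1621 to 1864 in somatodendritic and 433 to 724 in axonal Control libraries, and 1532 to 2396 and 571 to 1471 in knockdown libraries. The sum over 7 fibroblast and meningeal markers was 1.94 to 12.5 and 11.9 to 50.7 in Control, and 1.80 to 13.9 and 20.3 to 109 in knockdown libraries. A total of 6 of these 7 markers were above 0 in each group. The sum over 6 endothelial and mural markers was 32.1 to 206 and 135 to 766 in Control, and 21.3 to 222 and 71.3 to 2475 in knockdown libraries, nearly all of it Acta2. Cldn5 was listed at 0 throughout. Both glial lists had lower medians on the axonal side. The sum over 7 markers of the oligodendrocyte lineage and Schwann cells was 56.1 to 105.5 in somatodendritic and 9.40 to 43.7 in axonal Control libraries, and 52.1 to 120.6 and 7.27 to 83.5 in knockdown libraries. That over the 8 astrocyte and radial glia markers had medians of 356 and 132.5 in Control, with overlapping ranges, and of 371 and 229.5 in knockdown libraries. The part of these cells, and of the BDNF on the axonal side, in the compartment differences was not tested. Between knockdown and Control the somatodendritic sums overlapped for each of the 7 marker lists.

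The wider pathway was described with 8 lists of 95 genes, which hold the 10 members and 85 other genes. In the somatodendritic compartment 0 of the 76 tested non-members passed the adjusted threshold between knockdown and Control in limma (0.976% of all genes). At an unadjusted p under 0.05, 2 of 76 were higher and 9 of 76 lower, beside 4.61% and 9.3% of all genes. Igfbp3, which binds IGFs outside the cell, had the smallest p, with 8.86, 9.37, 7.80 and 17.1 FPKM in Control and 0, 2.06, 1.97, 5.75, 0 and 0 FPKM in knockdown libraries. All knockdown libraries were below all Control libraries (log2 change -2.64, standard error 0.569, adjusted p = 0.0505 in limma, with 1 of 10 fits past the threshold when single libraries were left out). Nras, a small GTPase of the MAPK arm, was at 9.87, 13.6, 10.5 and 15.4 FPKM against 1.79, 7.58, 4.85, 5.84, 3.68 and 0 FPKM (log2 change -1.88, adjusted p = 0.120 in limma). Pik3r2, the p85 beta subunit of PI3-kinase, was at 20.8 to 31.1 FPKM against 34.6 to 58.9 FPKM (log2 change 0.72, adjusted p = 0.134 in limma).

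Of the list of FoxO factors and targets 0 of 13 tested genes passed the adjusted threshold in this comparison, and 3 of 13, Cdkn1b, Sesn3 and Gadd45a, had an unadjusted p under 0.05 in limma, all as lower, where 13.9% of all genes had one (9.3% as lower). The list median was -0.29, beside -0.14 over all genes. Of the Ras and MAPK arm 3 of 13 had an unadjusted p under 0.05, Nras and Hras as lower and Braf as higher. The mTOR arm had 1 of 13, Rps6, as lower. In axonal libraries 0 of 74 tested non-members passed the adjusted threshold (0.404% of all genes) and 3 had an unadjusted p under 0.05, a share below the 8.72% of all genes. These were Igfbp2, an IGF-binding protein (log2 change -2.80, adjusted p = 0.450 in limma), Akt1s1, an mTOR complex component (-1.12, adjusted p = 0.491), and Pik3r3, a further regulatory subunit of PI3-kinase (0.94, adjusted p = 0.551). The Igfbp2 values were 225.7, 208.1, 142.3 and 249 FPKM in Control and 367, 36.0, 47.0, 0, 40.3 and 176 FPKM in knockdown libraries, so that the library labelled replicate 1 was the highest of all. Without it the Igfbp2 change was -3.37 (adjusted p = 0.251 in limma).

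Between the compartments of Control libraries 2 of 77 tested non-members passed the adjusted threshold in limma, near the share over all genes of 2.13%. Both were higher in axons. Shc1, an adaptor that links receptors to Ras, had a log2 difference of 3.54 (standard error 0.922, adjusted p = 0.0446), and Inppl1, a phosphatase that degrades the lipid product of PI3-kinase, 2.204 (standard error 0.570, adjusted p = 0.0415). Inppl1 was at 1.56, 2.38, 2.04 and 4.23 FPKM in somatodendritic and at 12.6, 7.96, 8.20 and 12.1 FPKM in axonal Control libraries. When each of the 20 libraries was left out in turn, Shc1 was called in 6 fits and Inppl1 in 8, with adjusted p up to 0.143 and 0.137 in limma.

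In knockdown libraries 9 of 77 tested non-members passed the adjusted threshold between the compartments (5.39% of all genes), 6 as higher and 3 as lower in axons. Gadd45a, a stress-responsive FoxO target, had a log2 difference of 3.02 (adjusted p = 0.00791 in limma), Eif4ebp1, a translation repressor under mTOR, 2.80 (adjusted p = 0.0204), Igfbp3 2.88 (adjusted p = 0.0217) and Dusp6, a MAPK phosphatase, 1.89 (adjusted p = 0.0299). Grb14, an adaptor that restrains the insulin receptor, was lower at -2.36 (adjusted p = 0.0200), as was Trib2, a pseudokinase, at -1.57 (adjusted p = 0.0297). The compartments overlapped for all 6 genes, and all but Trib2 were listed at 0 in some of the knockdown libraries. With 1 library left out in turn, Gadd45a, Grb14 and Eif4ebp1 were called in 20 of 20 fits, Igfbp3 in 17, Trib2 in 15 and Dusp6 in 14. Of the list of PI3-kinase and its phosphatases, 2 of 10 genes were called, Pik3r1 and Pik3r2, both as lower in axons. In the test of the difference between compartment effects 0 of 77 non-members passed the adjusted and 4 the unadjusted threshold in limma, near the shares over all genes of 0.0713% and 5.66%. The smallest p values were those of Gadd45a (2.70, adjusted p = 0.809), Bad, a cell death protein that Akt inactivates (-2.39, adjusted p = 0.844), and Pik3r2 (-0.92, adjusted p = 0.872).

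**Figure D5:**
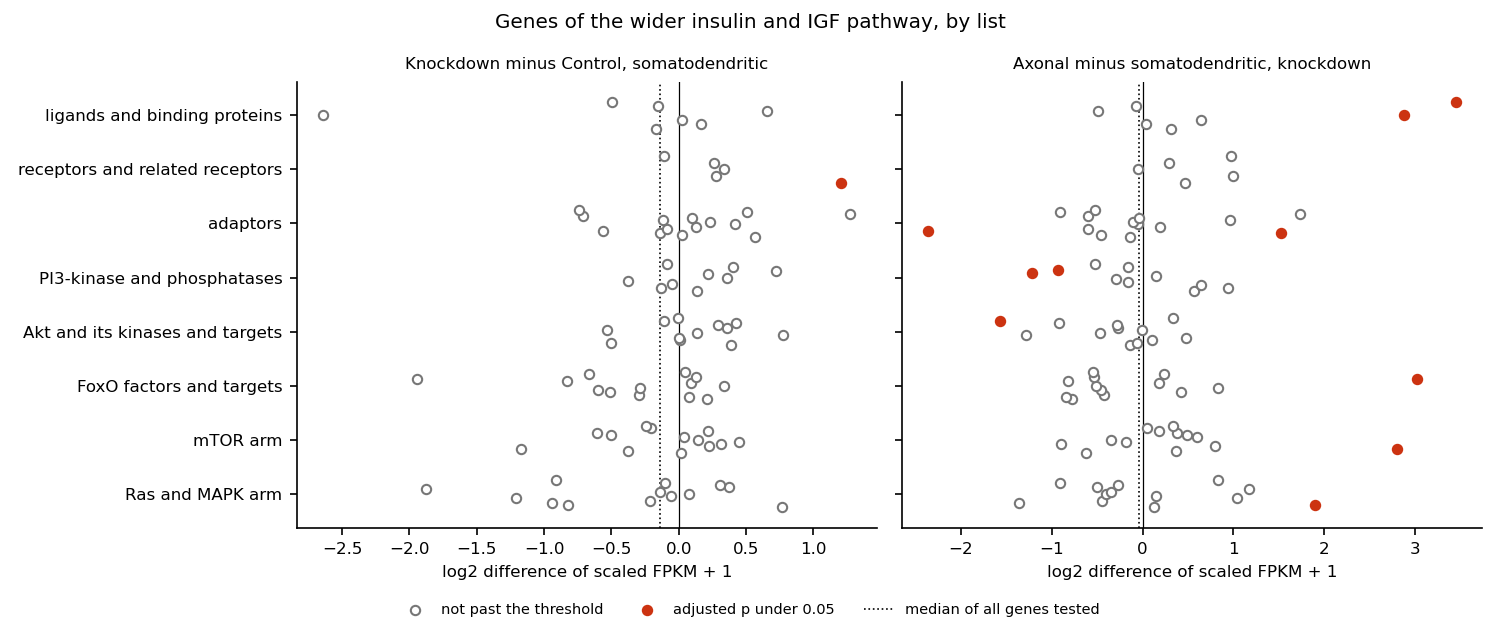
Log2 differences of all tested genes of the 8 pathway lists, members included, for knockdown minus Control in somatodendritic libraries (left) and axonal minus somatodendritic in knockdown libraries (right). Each point is a gene, and filled points are past the adjusted threshold. On the left 1 of 86 genes is filled (Igf1r), and on the right 10 of 87 are filled.

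The genes whose level followed Igf1r most closely were found by Pearson correlation of log2(scaled FPKM + 1) over the 20 libraries, which share depth, compartment and condition. They were Rad54l2 (r = 0.852), Ppp1r18 (r = 0.838), Cnot1 (r = 0.781), Rpl35 (r = 0.765) and Tmem245 (r = 0.753). Ppp1r18 averaged 5.49 and 16.8 FPKM in Control and knockdown somatodendritic libraries (log2 change 1.29, adjusted p = 0.0344 in limma) and 8.83 and 28.4 FPKM in axonal ones (log2 change 1.32, adjusted p = 0.556 in limma). Rpl35, a ribosomal protein gene, averaged 180.1 and 332 FPKM in somatodendritic libraries (log2 change 0.64, adjusted p = 0.145 in limma). Rad54l2, Cnot1 and Tmem245 had somatodendritic log2 changes of 0.50, 0.62 and 0.68 (adjusted p = 0.490, 0.119 and 0.364 in limma). Since the 5 genes were chosen for their likeness to Igf1r over the same libraries, these tests are not independent of that choice.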

How the data were processed

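The authors extracted total RNA from each compartment, amplified whole-transcriptome cDNA by PCR and sequenced it. Per the labels, Cufflinks 2.2.1 and FastQC 0.10.1 were used with the mouse build GRCm38, and file names refer to trimming and STAR. The mapper's version, the annotation release and the strand setting are not given in the sources used here. The deposited values are FPKM per gene with a 95% interval, computed by the authors for each library, with no read totals. The upper bound was treated as 2 SD of counting error above the value, from which implied fragments followed. Over 680 genes with more than 3 of them throughout, relative depth was 0.103 to 1. Values at or under 0.001 FPKM were taken as listed at 0.

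Median-of-ratios scaling used the genes that reached 1 FPKM in all libraries of a fit, and log2(FPKM + 1) was taken, which understates changes of low genes. Tests were run in R 4.3.3 with limma 3.58.1 (lmFit, then eBayes with a trend) on genes with a scaled mean of 1 FPKM or more. P-values were adjusted after Benjamini and Hochberg over the whole table, at a threshold of 0.05. All 10 members passed this filter in every fit. Knockdown and Control were compared within each compartment (10 libraries). Compartments, and the difference of their knockdown effects, were compared in a fit of all 20 libraries with 4 group means. Alternatives were the values as deposited, quantile normalization, scaling within each compartment, pseudocounts of 0.1 and 5, no filter or a mean of at least 5 FPKM, only libraries of 0.5 relative depth or more, array weights, a replicate block, all 20 libraries in one fit, and leaving out each library. The fits were tested on simulated data. All 10 members, Tardbp, the pathway genes with an adjusted p under 0.05 (at most 6 per comparison, otherwise the 3 with the smallest p), the 5 genes most like Igf1r and overlapping genes are named. Members, gene lists and tests were chosen with earlier results of these data known. TG runs were read from GENCODE M21 transcripts, which match the build of the files. Python 3.11.15, numpy 2.4.6, pandas 2.3.3 and matplotlib 3.10.9 were used. Slc18a3, a motoneuron marker, was not analysed here.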

Additional observations from a re-analysis of the deposited data

Results flagged for a closer look

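Within 40 sets of values (10 members in 4 groups), 3 held a library far from the others by Dixon's criterion, which chance meets in about 1 in 20 groups. Igf1r was at 23.3 FPKM in somatodendritic knockdown replicate 3, lowest of its group and still above every Control library. Insr was at 52.2 FPKM in somatodendritic knockdown replicate 6, which has a relative depth of 0.143. Akt1 was at 129.9 FPKM in axonal knockdown replicate 5, which has a relative depth of 0.103.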

How the results depend on the processing

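Igf2r, Igf2, Foxo3 and Insr had wide intervals, and the cause of this width was not tested. In somatodendritic libraries the median relative depth was 0.541 in knockdown and 0.752 in Control. In axonal libraries the medians were 0.510 and 0.575, and the knockdown range of 0.103 to 0.760 enclosed the Control range. The call of somatodendritic Igf1r was lost in 4 of 20 alternatives (all 20 libraries in one fit, the replicate block and the omission of Control replicate 1 or 3), and no member reversed while called. The 20 libraries in one fit assume a common spread in all groups. Where a cause is not given, the cause was not tested.

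Replicate numbers are shared by the labels, but libraries of the same number did not deviate together. The correlation of their deviations from the group means lay between -0.037 and 0.070, so the number was not taken as a pairing. With a replicate block the log2 change of somatodendritic Igf1r was 1.13 (adjusted p = 0.106 in limma), Insr and Akt1 turned to -0.071 and -0.0088 there, and 32, 35, 120 and 406 genes passed the adjusted threshold for knockdown in somatodendritic and in axonal libraries and for axons in Control and in knockdown libraries. The numbers without the block were 134, 56, 299 and 756.

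Over all genes, knockdown against Control in somatodendritic libraries had 233 genes past the threshold as deposited, 212 with a pseudocount of 5, 434 with array weights and 61 in the fit of all 20 libraries. For axonal libraries the numbers were 30 with a pseudocount of 0.1, 87 with array weights and 238 in the fit of all 20 libraries. Axonal against somatodendritic Control libraries had 579 as deposited, 181 and 486 with pseudocounts of 0.1 and 5, 1061 among those of 0.5 relative depth or more, 1216 with array weights and 588 with scaling within each compartment. Knockdown libraries had 503 with a pseudocount of 0.1, 495 without a filter, 368 at a relative depth of at least 0.5 and 1514 with scaling within each compartment. Leaving out each library gave 58 (without Control replicate 3) to 198 genes (without knockdown replicate 6) for knockdown in somatodendritic libraries and 36 (without Control replicate 1) to 70 in axonal ones. It gave 96 (without somatodendritic Control replicate 2) to 510 (without axonal knockdown replicate 5) between Control compartments and 446 (without somatodendritic knockdown replicate 5) to 1231 (without axonal knockdown replicate 4) between knockdown compartments. Among all genes whose unadjusted p was under 0.05, 33.1% were higher in somatodendritic knockdown libraries, 63.0% as deposited and 45.2% after quantile normalization. For axons these shares of the genes under that p were 24.7%, 72.8% and 34.6%. Axonal against somatodendritic shares were 53.4% in Control and 46.2% in knockdown libraries, and 16.8% and 30.1% as deposited.

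Members whose log2 change turned its sign were all without a call. For knockdown in somatodendritic libraries these were Insr at a relative depth of at least 0.5 (-0.053) and Igf1 as deposited (0.038). For knockdown in axons they were Igf2r, Irs1 and Pik3r1 as deposited (0.23, 0.10 and 0.41) and Pik3r1 after quantile normalization (0.010). Between knockdown compartments they were Insr at a relative depth of at least 0.5 (0.43) and with array weights (0.12), Irs1 as deposited (-0.045) and with scaling within each compartment (-0.17), Irs2 with a pseudocount of 5 (0.085), at a relative depth of at least 0.5 (0.53) and with array weights (0.081), Igf1 with scaling within each compartment (-0.063), Igf2 as deposited (-0.18), with a pseudocount of 0.1 (-0.54) and with scaling within each compartment (-0.25), and Akt1 at a relative depth of at least 0.5 (0.041). With 1 library left out, the ranges that crossed 0 were -0.39 to 0.12 for Igf1 and -0.34 to 0.54 for Igf2 (knockdown, somatodendritic), -0.46 to 0.063 for Igf2r (knockdown, axonal), and -0.30 to 0.26 for Insr, -0.34 to 0.27 for Irs2, -0.67 to 0.65 for Igf2 and -0.38 to 0.062 for Akt1 (between knockdown compartments). For the difference of knockdown effects it was -0.056 to 0.53 for Insr.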
